A study of Mus musculus with 47 samples.

Results

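Wild-type mouse olfactory epithelium was compared between postnatal day 10 (P10) and postnatal day 5 (P5) across all genes. The members are the 6 wild-type libraries of these ages whose titles carry the prefix cry6, 3 from P5 and 3 from P10, of 47 libraries in the whole series. The series follows the tissue from P0 to P21 in wild-type mice of strain C57BL/6J, called WT below, and in mice labelled OIVT;Kir2.1, called Kir below, and the comparison of P10 with P5 asks what changes in the wild-type tissue between these ages. The WT groups carry only the strain label, with no allele or agent named, and polyadenylated RNA from dissected tissue was sequenced. The Kir groups, used below only for the genotype comparison, were also P5 (3 libraries) and P10 (4 libraries). WT libraries from P3 and P14 (3 each, prefix cry4) served as a separate pair of ages. Nothing in the labels tells if the libraries of an age are separate animals. The edgeR p-values rest on the spread between libraries within groups, estimated from all 47 libraries fitted together. P5 and P10 replicates are numbered by accession order.

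The olfactory epithelium lines the back of the nose. Its sensory neurons are replaced throughout life: globose basal cells divide, pass through a precursor stage driven by proneural transcription factors such as Neurog1 and Neurod1, and give immature neurons that mature, switch on Omp and the cilia machinery of odor transduction, and express an odorant receptor each. Sustentacular cells support the neurons and carry detoxifying enzymes, Bowman's glands and nasal glands secrete the mucus, and horizontal basal cells form a reserve of stem cells.

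Each library held 26201892 to 30385151 counts assigned to genes, and 1.31% to 1.65% of its reads were unmapped. No pair of replicates was identical, and the variance between the counts of a pair was 16.79 to 94.93 times that of sampling. Defining markers of the labelled tissue were present in all 6 libraries, among them Omp for mature neurons (1160 CPM or more, where CPM is a count scaled to the normalized library size in units of 1e6 counts) and Cyp2g1 for sustentacular cells (2230 CPM or more). At each age 2 libraries had high Xist and the other expressed Y-linked genes, so each age holds at least 2 animals or pools. A pair of libraries stood apart. P5 replicate 2 held vomeronasal receptor transcripts at a summed 170 CPM, against 9.28 to 11.7 CPM in the other 5 libraries. P10 replicate 3 held odorant-binding lipocalins at a summed 4650 CPM, against 121 to 711 CPM, and BPI-fold secreted proteins at a summed 34300 CPM, against 6540 to 13600 CPM, as the plot of summed levels shows.

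**Figure D1:**
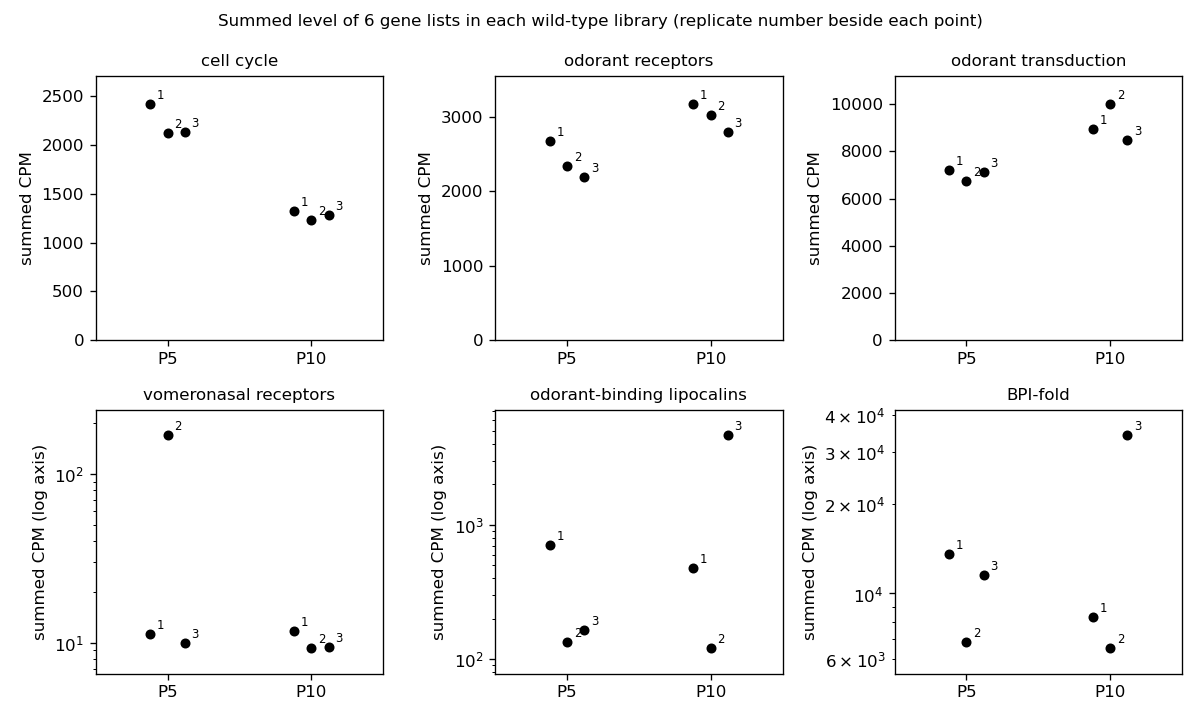
Summed CPM of 6 gene lists (vertical axes, linear from 0 in the upper row and logarithmic in the lower row) in each of the 3 P5 and 3 P10 wild-type libraries, 1 point per library with its replicate number. Cell cycle sums do not overlap between the ages, the vomeronasal sum is high only in P5 replicate 2 among these libraries, and the lipocalin and BPI-fold sums are highest in P10 replicate 3.

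At P10, 27 of 33 cell cycle genes, 6 of 17 genes of neuronal precursors and 7 of 20 genes of fetal growth were lower. The genes called higher included Omp of mature neurons, Cnga2 of odor transduction, the secreted proteins Chil4, Bpifb3 and Scgb1c1 and the enzymes Cyp2e1 and Scd1. Few members were called in such lists, for example 1 of 13 mature neuron genes and 2 of 18 transduction genes. Of 19927 genes tested, 385 were called at an adjusted p below 0.05 (1.93%; edgeR quasi-likelihood test, Benjamini-Hochberg). Of these, 121 were higher at P10 (0.607%) and 264 were lower (1.32%). The median log2 fold change over all genes was 0.01. Rises were larger but fewer: 61 genes rose at least 2-fold and 29 fell at least 2-fold, with medians of 1.01 and -0.75 among the called. All 121 higher genes had every P10 library above every P5 library, a pattern that 14.2% of all tested genes showed, and 259 of the 264 lower genes had every P10 library below, against 11.9% of all genes. In bulk tissue, fewer cells of a type and less RNA per cell cannot be told apart.

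The count of calls depended on single libraries. It was 113 without P5 replicate 1, 133 without P10 replicate 2, 192 without P10 replicate 3 and 235 without P5 replicate 2, and of the 385 genes 112, 132, 189 and 228 kept their call. None of the 385 changed its sign under any of these. Of 91 called genes followed by name, 51 lost their call without P5 replicate 1, 46 without P10 replicate 2, 43 without P10 replicate 3, 31 without P10 replicate 1, 29 without P5 replicate 2 and 25 without P5 replicate 3, and where a library is named below, others may end the same call.

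**Figure D2:**
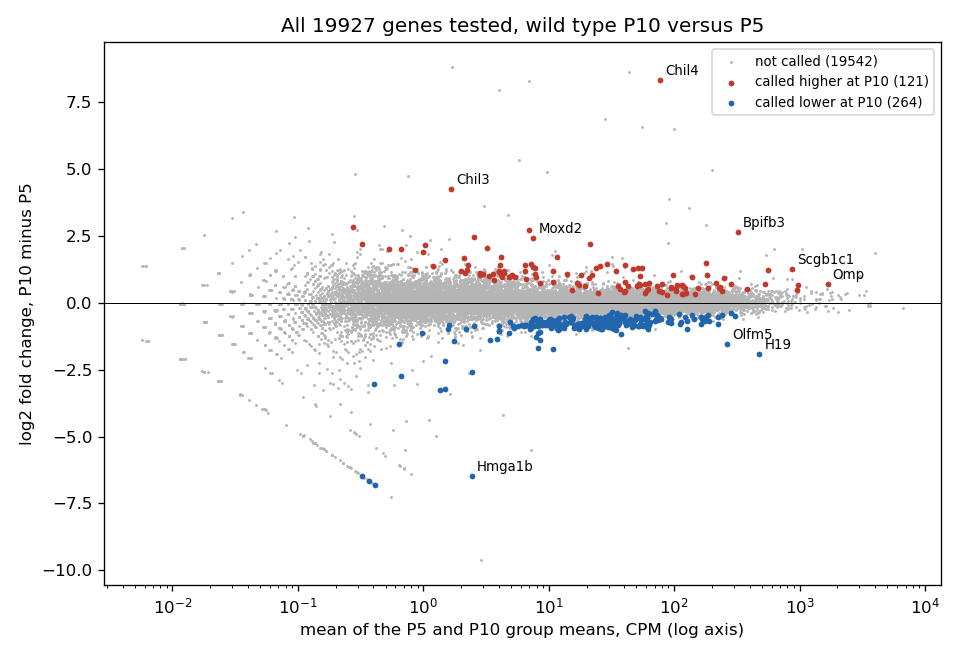
Each point is 1 of the 19927 genes tested, with the mean level over both ages in CPM (horizontal, log axis) and the log2 fold change, P10 minus P5 (vertical). The 264 lower calls, in blue, lie mostly within 1 log2 unit of 0, and the 121 higher calls, in red, reach 8.32 (Chil4).

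Genes that run cell division were the most uniform group. Of 33 cell cycle genes tested, 27 fell (81.8%, against 1.32% of all genes) and none rose. All 33 had every P10 library below every P5 library, against 11.9% of all genes, and the median log2 fold change was -0.78. Kif18b, a kinesin of the mitotic spindle, had the smallest adjusted p of all genes and was chosen after its value was seen. Its level was 29.5, 24.7 and 24.4 CPM in the P5 libraries and 14, 12.6 and 13.1 CPM in the P10 libraries. The ages did not overlap, and the log2 fold change was -0.99 ± 0.11 (SE; edgeR adjusted p = 3.9e-06). Aurkb, the kinase of the chromosomal passenger complex, stood at 37.9, 31.0 and 35.3 CPM at P5 and at 19.9, 16.7 and 16 CPM at P10. Its fall of -0.99 ± 0.13 on the log2 scale (edgeR adjusted p = 1.51e-05) stood beside a fall in Birc5, its partner in the complex, of -0.82 ± 0.12 (edgeR adjusted p = 7.26e-05). Cenpa, the histone variant that marks centromeres, went from 40.1 ± 3.95 to 21.6 ± 2.67 CPM (SD, n = 3 each). Cdc20, the activator of the ubiquitin ligase that starts anaphase, went from 66.9 ± 4.92 to 36.4 ± 1.31 CPM, again with no overlap.

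The fall covered successive steps of the cycle. All 6 subunits of the replicative helicase, Mcm2 to Mcm7, fell, by log2 fold changes from -0.55 to -0.82. The helicase genes and the families that follow were grouped after the values were seen. Of the centromere proteins 9 of 21 fell, with 5 of 8 condensin genes and 10 of 38 kinesins, against 1.32% of all genes. None of these last 3 families held a rise. The condensin subunit Ncaph went from 35.4 ± 4.04 to 18.0 ± 0.737 CPM, a log2 fold change of -0.97 ± 0.12 (edgeR adjusted p = 4.64e-06). Kif22, a kinesin that binds chromosome arms, and Ube2c, which loads ubiquitin for the same ligase that Cdc20 activates, changed by -0.94 ± 0.12 and -0.99 ± 0.13. The kinesin family as a whole had a median of 0.04, and it includes transport motors that act outside mitosis.

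Further division genes were among the 12 largest falls of the whole comparison. Cdc25c, the phosphatase that activates the mitotic kinase, changed by -1.08 ± 0.17, the DNA glycosylase gene Neil3 by -1.13 ± 0.19 and the centromere gene Cenpp by -1.06 ± 0.26. Parpbp, whose product restrains homologous recombination, also belongs to these falls, at 6.56 ± 0.61 CPM at P5 and 3.03 ± 0.289 CPM at P10. Mki67, the usual proliferation marker, stood at 253, 193 and 210 CPM at P5 and at 134, 140 and 138 CPM at P10. The ages were separate, but its call was close to the threshold (log2 fold change -0.67 ± 0.18, edgeR adjusted p = 0.0434) and was lost when any of the 6 libraries was left out, for example at an edgeR adjusted p of 0.277 without P5 replicate 1. Aurkb, Birc5, Cenpa, Cdc20, Kif18b, Ncaph, Ube2c, Cdc25c and Neil3 kept their calls under all 16 alternatives.

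Promoters of these genes are known for a pair of short elements, the cell cycle genes homology region (CHR, letters TTTGAA) and the CCAAT box (letters CCAAT), through which the DREAM complex and its counterpart in dividing cells act. The promoters shown are those of the 3 cell cycle genes of smallest adjusted p that hold both, from 150 bases before to 30 bases after the annotated start, from RefSeq on GRCm38.p6, on the strand of the gene. Capitals mark the CHR and the CCAAT box, read in either direction (ATTGG is the CCAAT box on the other strand).
Cenpa: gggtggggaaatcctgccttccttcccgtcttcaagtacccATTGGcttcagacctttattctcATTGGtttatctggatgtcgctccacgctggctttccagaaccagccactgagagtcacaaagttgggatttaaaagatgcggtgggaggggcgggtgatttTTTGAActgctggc
Cdc20: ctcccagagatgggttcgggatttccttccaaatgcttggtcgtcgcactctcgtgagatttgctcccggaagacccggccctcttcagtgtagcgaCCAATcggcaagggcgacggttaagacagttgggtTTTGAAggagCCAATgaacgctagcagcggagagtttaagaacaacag
Ccnb2: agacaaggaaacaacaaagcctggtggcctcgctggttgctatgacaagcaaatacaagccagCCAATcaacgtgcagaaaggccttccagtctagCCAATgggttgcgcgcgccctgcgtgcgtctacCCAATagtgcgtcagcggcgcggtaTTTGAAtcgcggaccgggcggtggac
Cenpa lies at chr5:30666736-30666915 on the plus strand, Cdc20 at chr4:118437314-118437493 on the minus strand and Ccnb2, a mitotic cyclin, at chr9:70421525-70421704 on the minus strand. Ccnb2 went from 43.8 to 23.8 CPM, a log2 fold change of -0.88 ± 0.15. Within 300 bases around the first listed start, TTTGAA or its reverse TTCAAA was present in 79 of the 209 lower genes with a RefSeq promoter (37.8%), in 19 of 95 higher genes (20%) and in 1937 of 13898 tested genes (13.9%); over all 27025 genes of the promoter table the share was 18.1%. CCAAT or ATTGG was present in 59.8% of the lower genes, 40.0% of the higher genes and 38.2% of tested genes, and in 37.9% of all promoters. Both elements together were present in 25.8% of the lower genes, against 5.73% of tested genes and 7.12% of all promoters. A match describes the letters in the window only.

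**Figure D3:**
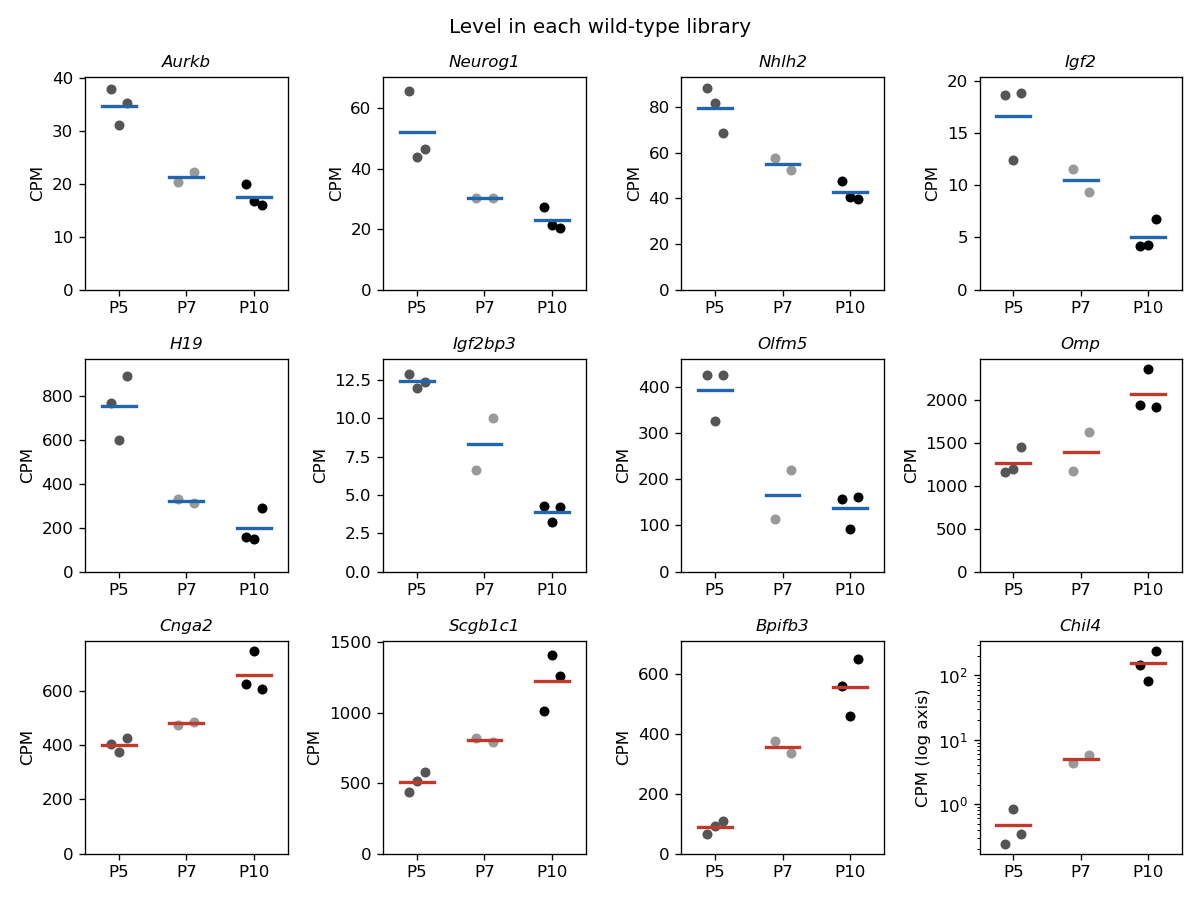
Level in CPM (vertical; logarithmic for Chil4, linear from 0 elsewhere) of 12 genes in each wild-type library of P5 (3), P7 (2, of the same title prefix) and P10 (3), with a bar at each group mean, blue for genes lower and red for genes higher at P10. In each panel the P5 and P10 libraries do not overlap and the P7 mean lies between the other means.

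Some genes of the neuronal precursors were lower too. In the globose basal and precursor list 6 of 17 genes fell and none rose, against 1.32% lower calls among all genes, and the median log2 fold change was -0.52. Neurog1, a proneural factor of the immediate precursors, stood at 65.8, 44.0 and 46.4 CPM at P5 and at 27.2, 21.5 and 20.5 CPM at P10. Every P10 library was below every P5 library (log2 fold change -1.17 ± 0.25, edgeR adjusted p = 0.00595). Neurod1, which acts after it, went from 60.9 ± 11.7 to 33.5 ± 6.18 CPM (-0.86 ± 0.19). Without P5 replicate 1, the library with the highest levels of both genes, neither was called (edgeR adjusted p = 0.0924 for Neurog1 and 0.134 for Neurod1), with log2 fold changes of -0.97 and -0.70. The 6 calls of the list became 2 without P5 replicate 1 and 3 without P10 replicate 3. Leaving out P10 replicate 2 or 3 also ended both calls (edgeR adjusted p = 0.0552 and 0.0514 for Neurog1, 0.0954 and 0.079 for Neurod1).

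Nhlh2, a helix-loop-helix factor of late precursors, fell from 79.5 ± 10 to 42.7 ± 4.21 CPM and kept its call under all 16 alternatives. Tead2, a transcription factor of the Hippo pathway, and Ezh2, the enzyme that writes the repressive histone H3 lysine 27 mark, fell by log2 fold changes of -0.72 ± 0.14 and -0.62 ± 0.13. Sox2 (-0.32 ± 0.22), Kit (-0.37 ± 0.12) and Insm1 (-0.30 ± 0.23) of the same list did not pass the test, and Lgr5 was the only member with a positive value (0.41 ± 0.18, edgeR adjusted p = 0.326).

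Other regulators held few calls. Of 22 Notch pathway genes, 2 fell (9.09%, against 1.32% of all genes). They were Mfng (-0.76 ± 0.19, edgeR adjusted p = 0.0205) and Lfng (-0.61 ± 0.16, edgeR adjusted p = 0.0386). Both are glycosyltransferases of the Fringe family that tune the response of Notch receptors to ligands. The list median was -0.15, and the receptors Notch1, Notch2 and Notch3 gave -0.39, -0.07 and -0.08 with no call. Both Notch calls were lost without P10 replicate 2, P10 replicate 3 or P5 replicate 1. Of 4 Dlx homeobox genes 2 fell, against 1.32% of all genes. They were Dlx5 and Dlx6, neighbours on chromosome 6 (-0.75 ± 0.20 and -0.70 ± 0.18), while Dlx3 (-0.73) and Dlx4 (-0.63) did not pass the test. Of 7 Hedgehog genes 2 fell, against the same 1.32%. They were the effectors Gli1 (-1.39 ± 0.35) and Gli2 (-0.85 ± 0.21), while others, among them Hhip (-0.90), Gli3 (-0.38) and Smo (-0.24), did not pass. Also called lower was the DNA methyltransferase Dnmt1, which copies methylation at replication (-0.45 ± 0.12). The Dlx, Hedgehog and Dnmt1 genes were chosen after their values were seen, and each called one lost its call when some single libraries were left out.

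Fetal growth genes held the 3 largest falls among calls of at least 5 CPM whose ages did not overlap. Of 20 imprinted and fetal growth genes 7 fell (35.0%, against 1.32% of all genes) and none rose. In this list 17 had every P10 library below every P5 library, against 11.9% of all genes, and the median log2 fold change was -0.85. H19, the imprinted long noncoding RNA beside Igf2, stood at 770, 601 and 894 CPM at P5 and at 159, 148 and 291 CPM at P10. The groups were far apart, with a log2 fold change of -1.92 ± 0.35 (edgeR adjusted p = 0.00101), the largest fall among calls of at least 5 CPM. Igf2, the fetal growth factor that shares its enhancers with H19, stood at 18.7, 12.4 and 18.9 CPM at P5 and at 4.16, 4.24 and 6.8 CPM at P10 (-1.72 ± 0.35, edgeR adjusted p = 0.00384). H19 and Igf2 kept their calls under all 16 alternatives. In the authors' TPM values Igf2 stood far above its CPM, at 374 ± 60.2 TPM at P5 and 126 ± 38.4 TPM at P10. H19 stood at 701 ± 147 and 183 ± 55.8 TPM. The reason for the Igf2 gap between scales was not tested.

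All 3 genes of the Igf2bp family, RNA-binding proteins of fetal tissue that bind Igf2 messenger RNA, fell. The family was grouped after the values were seen. Igf2bp3 stood at 12.9, 12 and 12.4 CPM at P5 and at 4.30, 3.24 and 4.20 CPM at P10, so that the spread within each age was small against the gap (-1.67 ± 0.20, edgeR adjusted p = 4.64e-06). Igf2bp1, at 0.957 ± 0.333 CPM at P5, gave -1.52 ± 0.41 and Igf2bp2 gave -0.55 ± 0.14, calls that were lost without P10 replicate 3 (edgeR adjusted p = 0.241 for Igf2bp1 and 0.26 for Igf2bp2) and, for Igf2bp2, without any other library. Hmga2, a chromatin protein of growing fetal tissue, went from 22.8 ± 1.09 to 13.5 ± 1.79 CPM (-0.76 ± 0.15). Grb10, an imprinted adaptor that restrains growth factor signalling, went from 168 ± 5.19 to 86.5 ± 4.34 CPM (-0.96 ± 0.19). The imprinted growth inhibitor Cdkn1c (-0.81 ± 0.23, edgeR adjusted p = 0.0554) and the imprinted genes Meg3 (-0.66 ± 0.43) and Peg3 (-0.45 ± 0.26) did not pass the test, and Igf2r (-0.17 ± 0.17) and Peg10 (0.03 ± 0.28) overlapped between the ages.

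**Figure D4:**
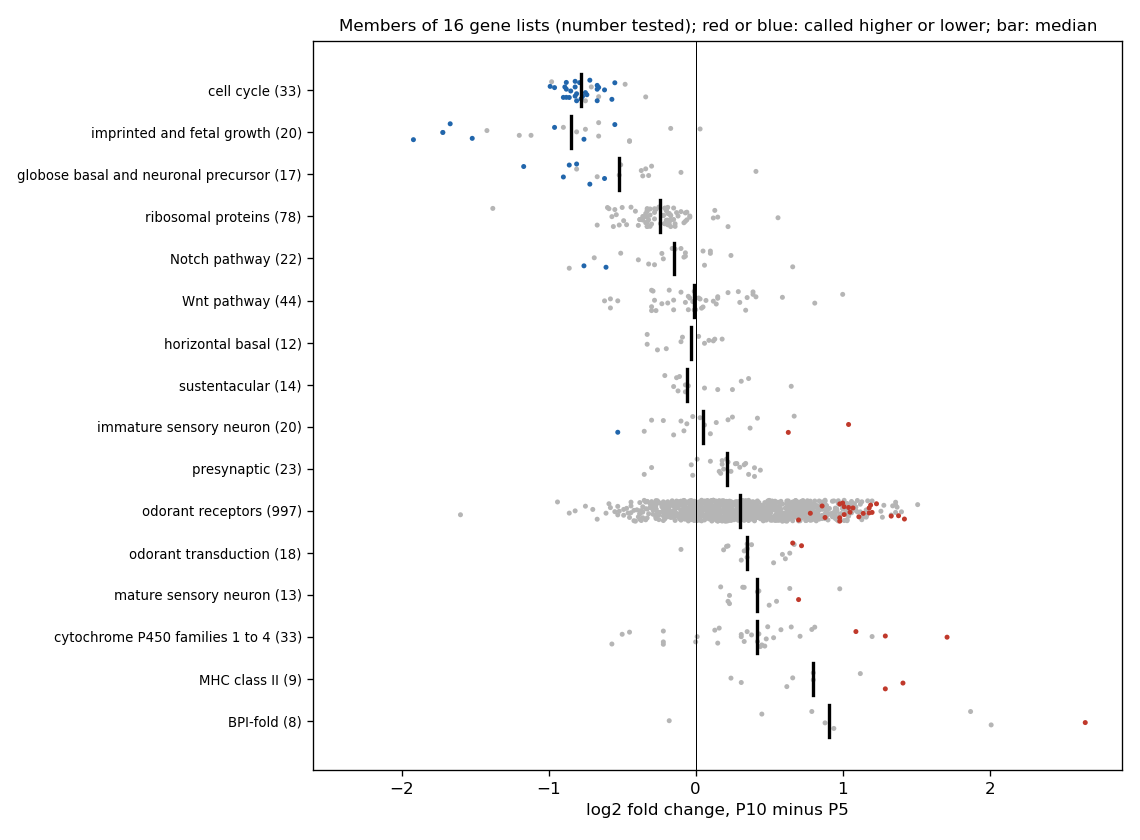
Log2 fold change, P10 minus P5 (horizontal), of each tested member of 16 gene lists (rows, with the number tested), grey where not called, blue where called lower and red where called higher; the black bar is the list median. Medians run from -0.85 for fetal growth and -0.78 for the cell cycle to 0.42 for mature neurons and 0.91 for the BPI-fold genes (0.33 without P10 replicate 3).

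Olfm5, an olfactomedin-domain gene on chromosome 7, was among the 12 largest falls. It stood at 427, 327 and 426 CPM at P5 and at 158, 92.9 and 162 CPM at P10, without overlap. It fell by 1.52 ± 0.35 on the log2 scale (edgeR adjusted p = 0.0115). In the separate libraries of P14 and P3 the Olfm5 change was -3.60, also called. Without P10 replicate 2 or P5 replicate 1 the P10 versus P5 call of Olfm5 was lost (edgeR adjusted p = 0.128 and 0.0681, log2 fold changes -1.31 and -1.45). The strand setting of the authors' counting was not stated in the labels, so overlapping transcripts cannot be told apart.

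Some falls rested on P5 replicate 2. Atf3, a stress-induced transcription factor, stood at 7.12, 23.8 and 5.83 CPM at P5 and at 5.44, 3.66 and 4.87 CPM at P10. Replicate 2 was far above the others, and without it the log2 fold change went from -1.39 ± 0.32 to -0.48 (edgeR adjusted p = 0.657). Vomeronasal receptor genes belong to the separate vomeronasal organ, and 66 of 330 passed the filter. Of these 66, 6 were called lower (9.09%, against 1.32% of all genes), and all 66 had negative values. Without P5 replicate 2 none was called, and the list median went from -4.93 to 0. Under other filters, scalings and sets of libraries the median was as high as -0.08. Vmn2r2, for example, stood at 1.28, 4.95 and 1.03 CPM at P5 and at 0.416, 0.621 and 0.558 CPM at P10, and it lost its call without P5 replicate 2 (-1.12, edgeR adjusted p = 0.432) and without any P10 library. The 5 lower calls whose libraries overlapped, Gm36028, Vil1, Vmn2r1, Vmn1r86 and Vmn1r184, were all high only in that library; Vil1, an actin-bundling protein of microvilli, stood at 10.7 CPM there and at 0.595 to 1.07 CPM elsewhere. Whether this library held tissue of the vomeronasal organ was not tested. Ccl9, a chemokine, fell from 11.2 ± 1.61 to 4.66 ± 1.31 CPM and belongs to the 12 largest falls (-1.27 ± 0.29, edgeR adjusted p = 0.0131), a call lost without P10 replicate 1 or 2 or P5 replicate 2 (adjusted p = 0.0768, 0.116 and 0.0577).

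Of the mature neuron genes only Omp passed the test. Omp, the olfactory marker protein of mature neurons, stood at 1160, 1200 and 1460 CPM at P5 and at 1940, 2360 and 1920 CPM at P10. The ages did not overlap and the log2 change was 0.70 ± 0.19 (edgeR adjusted p = 0.0413), but leaving out any library other than P5 replicate 3 ended the call, at an edgeR adjusted p of up to 0.256 without P10 replicate 2. Omp was the 1 called gene of 13 in the mature neuron list, against 0.607% of all genes called higher. All 13 had positive values, 9 had every P10 library above every P5 library (against 14.2% of all genes), and the median was 0.42.

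Odor transduction showed the same direction. Odorant receptors activate the G protein subunit encoded by Gnal, which drives adenylyl cyclase (Adcy3), and cyclic AMP opens a channel built from Cnga2, Cnga4 and Cngb1, followed by the chloride channel Ano2. Cnga2 stood at 402, 374 and 427 CPM at P5 and at 624, 745 and 605 CPM at P10 (log2 fold change 0.72 ± 0.15, edgeR adjusted p = 0.00705). Stoml3, a stomatin-like protein of the sensory cilia, went from 745 ± 26.6 to 1180 ± 91.6 CPM (0.66 ± 0.17, edgeR adjusted p = 0.0254). Both genes separated the ages completely, and they were the 2 calls among 18 transduction genes (11.1%, against 0.607% of all genes called higher). Gnal (0.61 ± 0.18, edgeR adjusted p = 0.0666), Cnga4 (0.64 ± 0.19) and Cngb1 (0.67 ± 0.24) were of similar size without passing the test, while Adcy3 and Ano2 both gave 0.35. In all, 17 of the 18 had positive values and the list median was 0.35. Every P10 library was above every P5 library for 14 of them, against 14.2% of all genes. Without P10 replicate 2 neither call was kept (edgeR adjusted p = 0.0777 for Cnga2 and 0.163 for Stoml3), nor without P5 replicate 1, and Stoml3 lost its call without any 1 of the 6 libraries.

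Immature neurons moved in mixed directions. Of 20 genes 2 rose, against 0.607% of all genes, and 1 fell, against 1.32%. In 5 of the 20 every P10 library was above every P5 library (against 14.2% of all genes), and in 5 below (against 11.9%). The list median was 0.05, and its sign turned under 2 alternatives. None of the 3 calls was kept without P10 replicate 2, P5 replicate 1 or P5 replicate 3. Stmn4, a microtubule-destabilizing stathmin, went from 64.4 ± 4.31 to 133 ± 24.2 CPM (1.04 ± 0.26, edgeR adjusted p = 0.026) and the deacetylase Hdac9 from 27.8 ± 1.69 to 43.2 ± 6.64 CPM (0.63 ± 0.17). Cxcr4, the chemokine receptor of early immature neurons, went from 107 ± 15.2 to 74.0 ± 5.11 CPM (-0.53 ± 0.14). Gap43, the growth cone marker, stood at 303 ± 25.9 CPM at P5 and 406 ± 28.4 CPM at P10 and did not pass the test (0.42 ± 0.23, edgeR adjusted p = 0.508). Among 31 semaphorin, neuropilin and plexin genes of axon guidance Sema7a alone was called (3.23%, against 0.607% of all genes called higher). Its level was 85.5, 93.8 and 104 CPM at P5 and 171, 188 and 190 CPM at P10 (0.96 ± 0.21, edgeR adjusted p = 0.00827). The 7 Robo and Slit genes, the 20 Eph receptors and ephrins and the 23 presynaptic genes held no call.

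Few odorant receptor genes passed the test, and those that did were higher at P10. Of 997 receptor genes tested, 23 rose (2.31%, against 0.607% of all genes) and none fell (against 1.32%). Of the 997, 282 (28.3%, against 14.2% of all genes) had every P10 library above every P5 library. Every P10 library was below for 6 of them (0.602%, against 11.9% of all genes). The count of 23 became 0 without P5 replicate 1, 2 without P10 replicate 1, 4 without P5 replicate 3, 6 without P10 replicate 2, 9 without P5 replicate 2 and 13 without P10 replicate 3, and it was 0 on each TPM scale and 47 by DESeq2. The median log2 fold change was 0.30, with 769 positive and 228 negative values. Receptors took up 0.268%, 0.234% and 0.219% of gene counts in the P5 libraries and 0.317%, 0.303% and 0.280% in the P10 libraries. The ages did not overlap, and the exact permutation test gave p = 0.1, two-sided, the smallest that 3 against 3 libraries can reach. By TPM the shares were 0.193% ± 0.0206 and 0.245% ± 0.0334, with overlap (exact permutation p = 0.2). The number of receptor genes at 0.5 CPM or more was 886 to 928 at P5 and 929 to 940 at P10.

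The 23 receptors that rose came from several clusters. The chromosomes were 7 with 6 of 211 tested receptors, 14 with 5 of 37, 1 with 3 of 26 and 11 with 3 of 76. Chromosomes 2, 15 and 17 held 2 each, of 247, 8 and 47 tested. Chromosomes with no rise included 9 (120 tested), 10 (63), 19 (53) and 16 (37), where 2.31% of all tested receptors rose. Neighbours rose together in 5 places: Olfr1336, Olfr1348 and Olfr1349 on chromosome 7, Olfr740 with Olfr741 and Olfr1509 with Olfr1507 on chromosome 14, Olfr282 with Olfr279 on chromosome 15, and Olfr1414 with Olfr1412 on chromosome 1. Olfr1507, a much-studied receptor also known as MOR28, stood at 31.4, 40.5 and 34.3 CPM at P5 and at 76.1, 74.2 and 63.8 CPM at P10. This separation gave a log2 fold change of 1.01 ± 0.24 (edgeR adjusted p = 0.0183). Olfr536, the most abundant of the 23, went from 44.8 ± 2.98 to 73.0 ± 13.2 CPM (0.70 ± 0.17). Olfr1349 had the smallest adjusted p of the receptors, with 4.24 ± 0.559 CPM at P5 and 10.7 ± 2.81 CPM at P10 (1.33 ± 0.29, edgeR adjusted p = 0.00896). The receptors that rose had a median P10 level of 6.17 CPM, against 2.10 CPM over all tested receptors. All 23 were also called higher at P14 versus P3, where 493 of the 997 receptors were. Multiply mapped reads were left out of the counts, which leaves near-identical receptors uncertain. The calls of Olfr1507, Olfr536 and Olfr1349 were lost without P5 replicate 1 (edgeR adjusted p = 0.139, 0.13 and 0.0953). No call was made among 11 trace amine receptors, whose median was 0.37, or among 12 genes of atypical sensory neurons.

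Genes of secreted nasal proteins were among the largest rises. Chil4, a chitinase-like lectin, stood at 0.242, 0.856 and 0.343 CPM at P5 and at 143, 83.0 and 240 CPM at P10. This was the largest rise among called genes, with a log2 fold change of 8.32 ± 1.48 (edgeR adjusted p = 0.000803). The P7 libraries held 4.39 and 5.77 CPM. Among its relatives, Chil3 rose from 0.162 ± 0.116 to 3.19 ± 1.54 CPM and Chil6 from 94.0 ± 10.6 to 262 ± 74.6 CPM. These calls were kept under 12 and 8 of 16 alternatives. Chil1 (-0.11 ± 0.63) and Chil5 (-0.02 ± 0.30) overlapped between the ages and were not called. The 5 chitinase-like genes were grouped after the values were seen. Chil3 and Chil4 are close copies, so their reads may be partly shared.

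Bpifb3, a BPI-fold protein of the nasal mucus, stood at 65.4, 92.1 and 108 CPM at P5 and at 559, 458 and 650 CPM at P10. Every P10 library was above every P5 library, and the log2 fold change was 2.65 ± 0.33 (edgeR adjusted p = 5.99e-06). It was the 1 call among 8 BPI-fold genes (12.5%, against 0.607% of all genes called higher). Their median of 0.91 became 0.33 without P10 replicate 3 and 0.12 on log2(TPM + 1). Bpifb4 (0.88 ± 0.25, edgeR adjusted p = 0.0523) separated the ages without passing the test. Scgb1c1, a secretoglobin of Bowman's glands, went from 440, 512 and 580 CPM to 1010, 1410 and 1260 CPM, which do not overlap (1.26 ± 0.19, edgeR adjusted p = 9.69e-05). The demilune cell and parotid protein genes Dcpp1, Dcpp2 and Dcpp3 are neighbours on chromosome 17 and were grouped after the values were seen. They rose by log2 fold changes of 2.04 ± 0.33, 2.45 ± 0.47 and 2.19 ± 0.37, and as near copies they may share reads. Vmo1, a secreted protein chosen after its value was seen, went from 336 ± 23.6 to 785 ± 269 CPM (1.22 ± 0.26). Chil4, Bpifb3, Scgb1c1, Dcpp1, Dcpp2 and Dcpp3 kept their calls under all 16 alternatives.

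Moxd2 and Tac4 were also among the 12 largest rises. Moxd2, a copper monooxygenase-like gene, stood at 1.31, 2.83 and 2.9 CPM at P5 and at 13.3, 11.2 and 13.8 CPM at P10 (2.44 ± 0.41, edgeR adjusted p = 0.000415). Tac4, which encodes the tachykinin hemokinin, stood at 14.8, 14.6 and 16.9 CPM at P5 and at 43.6, 44.4 and 40.0 CPM at P10 (1.47 ± 0.23, edgeR adjusted p = 0.000178). Both were separate between the ages, with little spread within each.

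Odorant-binding lipocalins had large values that did not pass the test. The median log2 fold change of 8 genes was 3.72, with no call, and P10 replicate 3 stood far above the others. Obp1a, for example, stood at 0.901, 8.49 and 584 CPM in the P10 libraries and at 5.70, 0.149 and 0.572 CPM at P5 (6.50 ± 2.08, edgeR adjusted p = 0.11). In total 13 genes of at least 5 CPM had a log2 fold change of 3 or more without a call, and 10 of them were highest in P10 replicate 3, among them Mup4, Mup5, Obp1b, Obp2a and Obp2b. The part of gland tissue in this library was not tested.

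Enzymes of detoxification and lipid metabolism rose in part. Of 33 cytochrome P450 genes of families 1 to 4, 3 rose (9.09%, against 0.607% of all genes) and none fell, and the median was 0.42. Cyp2e1, which oxidizes small solvents, went from 1.14, 3.09 and 1.64 CPM to 6.07, 6.04 and 7.10 CPM, separate groups (1.71 ± 0.35, edgeR adjusted p = 0.00446). Cyp3a13 and Cyp2j12 rose by 1.29 ± 0.28 and 1.09 ± 0.30. None of these 3 calls was kept without P5 replicate 1 (edgeR adjusted p = 0.0827 for Cyp2e1, 0.0727 for Cyp3a13 and 0.307 for Cyp2j12), and 1 call remained in the list without P10 replicate 2 or without P10 replicate 3. The list median was 0.28 without P10 replicate 3 and 0.21 on log2(TPM + 1). The glucuronosyltransferase Ugt1a7c (1.69 ± 0.34, edgeR adjusted p = 0.00384) was the 1 call among 29 conjugating enzymes (3.45%, against 0.607% of all genes). Their median was 0.03. The carboxylesterase Ces1f went from 3.85 ± 0.184 to 10.6 ± 5.27 CPM, with a call that was lost without P10 replicate 3 (1.06, edgeR adjusted p = 0.134). Scd1, the desaturase that makes monounsaturated fatty acids, went from 18.4, 21.5 and 26.7 CPM to 46.8, 70.4 and 61.5 CPM (1.43 ± 0.29, edgeR adjusted p = 0.00384). It alone was called among 21 genes of cholesterol and fatty acid synthesis (4.76%, against 0.607% of all genes), whose median was 0.07. Srd5a2, a steroid reductase, and Apoe and Apod, lipid carriers of glia and other supporting cells, rose by 1.38 ± 0.24, 0.93 ± 0.22 and 1.29 ± 0.25. Apod was the 1 call of 15 in the ensheathing glia and myelin list (6.67%, against 0.607% of all genes).

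Genes of sustentacular cells held no call. Of 14 genes none passed the test and the median was -0.06, with a sign that turned under 6 of 16 alternatives. Cyp2g1 stood at 2230, 3040 and 2720 CPM at P5 and at 3500, 3730 and 2670 CPM at P10, which overlap (0.31 ± 0.25, edgeR adjusted p = 0.73). Cbr2, a carbonyl reductase abundant in these cells, gave -0.11 ± 0.20. Of 12 genes of horizontal basal cells none was called either, and Krt5, their keratin, stood at 73.3 ± 17.7 CPM at P5 and 80.1 ± 26.0 CPM at P10.

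Single genes known from rarer cells rose. Among microvillous and ionocyte genes 1 of 15 rose (6.67%, against 0.607% of all genes), and the list median was 0.20. It was Avil, an actin-binding protein of tuft-like microvillous cells, which went from 3.28 ± 1.23 to 6.39 ± 0.879 CPM (0.96 ± 0.22, edgeR adjusted p = 0.0131). Spib and Sh2d7, known from tuft cells of other tissues and chosen after their values were seen, rose by 1.09 ± 0.28 and 1.08 ± 0.26. The calls of Avil, Spib and Sh2d7 were lost without P5 replicate 1 (edgeR adjusted p = 0.167, 0.261 and 0.107). Which cells held these rises was not tested.

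A pair of genes of antigen presentation to helper T cells rose from a low level. Of 9 MHC class II genes 2 rose (22.2%, against 0.607% of all genes), all 9 had positive values, and the median was 0.80. Cd74, the invariant chain, went from 11.1, 20.1 and 10.1 CPM to 40.2, 27.2 and 33.4 CPM (1.29 ± 0.32, edgeR adjusted p = 0.0223), and H2-Eb1 from 3.52 ± 1.92 to 9.33 ± 1.07 CPM (1.41 ± 0.31, edgeR adjusted p = 0.00979). Neither age overlapped the other, although both calls were lost without P10 replicate 3, P5 replicate 3 or P5 replicate 1 (for the last, edgeR adjusted p = 0.167 for Cd74 and 0.126 for H2-Eb1). Itgax, an integrin of dendritic cells chosen after its value was seen, rose from 0.413 ± 0.0341 to 1.56 ± 0.433 CPM. None of 18 macrophage genes, 8 B cell genes or 3 T and natural killer cell genes was called.

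Bone and smooth muscle each held 1 rise. Bglap, osteocalcin of bone-forming cells, went from 1.24, 1.60 and 2.59 CPM to 9.39, 9.08 and 17.7 CPM, with no overlap (2.73 ± 0.65, edgeR adjusted p = 0.0156). The other 17 bone genes were not called, and the summed level of the list, 605 to 1770 CPM at P5 and 1210 to 2260 CPM at P10, overlapped between the ages. Myh11, the smooth muscle myosin, went from 5.51 ± 0.822 to 17.9 ± 9.60 CPM, and both calls were lost without P10 replicate 3 (edgeR adjusted p = 0.0941 for Bglap and 0.278 for Myh11). The share of bone or vessel tissue in each dissection was not tested beyond these markers.

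Several other lists held no call at P10 versus P5: 31 interferon-stimulated genes (median -0.35), 44 Wnt pathway genes (-0.01), 19 retinoic acid pathway genes (-0.03), 17 clock genes (0.08), 78 ribosomal protein genes (-0.24), 90 nuclear genes of oxidative phosphorylation (-0.02) and 17 collagens (0.04). Ribosomal protein genes leaned to 1 side, with 73 of 78 negative values. The counts of these genes leave out multiply mapped reads, which were 14.6% to 20.6% of reads per library. The part of read mapping in this lean was not tested. Smchd1, a chromatin repressor, fell from 210 ± 15.8 to 146 ± 1.89 CPM (-0.52 ± 0.14, edgeR adjusted p = 0.0297). It was the 1 call of 21 in the list for odorant receptor choice (4.76%, against 1.32% of all genes called lower).

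Most of these genes were also called in separate libraries of other ages. P14 and P3 libraries shared no library and no title prefix with P10 and P5, and that comparison called 2569 genes higher (12.9%) and 1932 lower (9.7%). Of the 121 genes higher at P10, 111 were also higher at P14 (91.7%), and of the 264 lower genes, 244 were also lower (92.4%); none was called in the opposite direction. The 355 shared genes were 92.2% of the P10 versus P5 calls and 7.89% of the P14 versus P3 calls. H19 changed by -3.36 there, Igf2 by -2.56, Aurkb by -1.80, Omp by 1.39 and Bpifb3 by 3.01. Chil4 (3.83, edgeR adjusted p = 0.109), Chil3 (1.51), Myh11 (0.54) and Atf3 (0.32) were not called in the separate pair of ages.

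**Figure D5:**
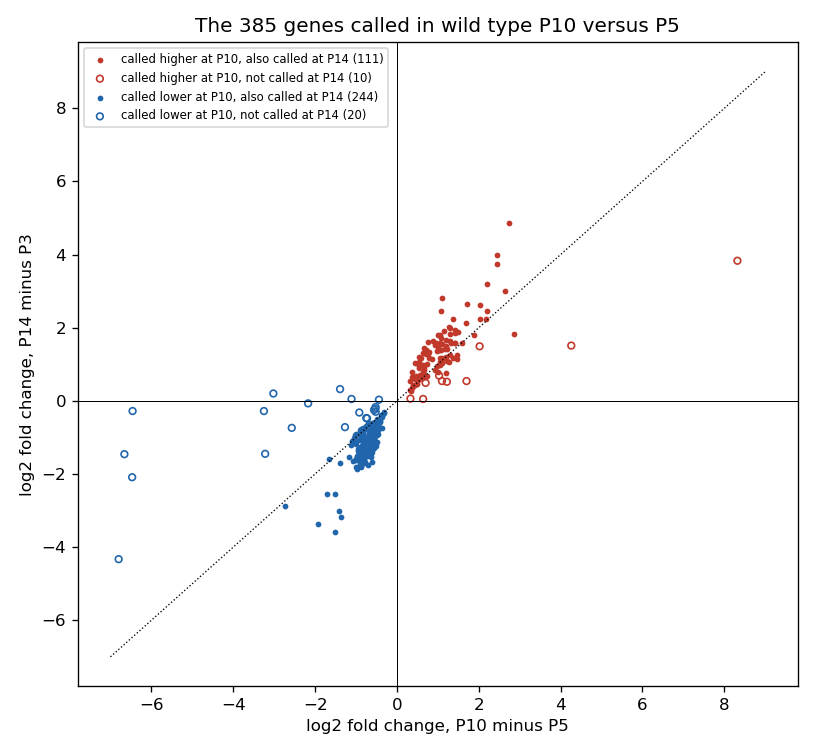
Log2 fold change of the 385 called genes in wild type, P10 minus P5 (horizontal) against P14 minus P3 in separate libraries (vertical), with the line of equality dotted. Filled points (111 higher, 244 lower) were called in both, open points (10 and 20) only at P10 versus P5 by this threshold, and no gene was called in opposite directions.

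The 2 P7 libraries of the same prefix lay between. Their mean was between the P5 and P10 means for 116 of the 121 higher genes and for 256 of the 264 lower genes. These genes were called for a gap between the P5 and P10 means, so the counts cannot test for a gradual change. The share over all genes was not computed. Kif18b had 16.1 and 17.0 CPM at P7, against means of 26.2 at P5 and 13.2 at P10, and Bpifb3 had 377 and 336 CPM, against 88.6 and 556. Omp stood at 1170 and 1630 CPM at P7, a range that overlaps the P5 libraries.

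In Kir, most of the WT calls recurred. Its own P10 versus P5 comparison, which shares no library with the WT one, called 1053 genes higher (5.28%) and 692 lower (3.47%), and it called 80 of the 121 WT rises and 226 of the 264 WT falls in the same direction. Kcnj2, which encodes Kir2.1, stood at 41.6 ± 4.42 CPM at P5 and 47.2 ± 5.83 CPM at P10 in WT and was not called (0.18 ± 0.49). The test of the difference between the genotypes in this change called 19 genes (0.0953%), each with a change higher in Kir than in WT, and none of them was among the 385. Of these, H2-Q6, a class I histocompatibility gene, changed by -2.0 ± 0.56 in WT, without a call (edgeR adjusted p = 0.0527), and by 2.51 in Kir. With the 2 Kir P10 libraries of most unmapped reads (17.7% and 33.5%) left out, 1 gene was called.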

How the data were processed

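Reads had been demultiplexed with bcl2fastq 2.18, aligned to mm10 with STAR 2.6.1c and quantified with RSEM, per the submitters' processing notes. The deposited gene counts from STAR are raw whole numbers, with 4 lines that name no gene left out here, and the authors' deposited TPM values from RSEM were used only as alternatives and for the receptor share. The authors' annotation was not given in the sources used here; 54409 of 54532 gene identifiers matched GENCODE M21, which supplied symbols and positions. All 47 libraries were fitted together in edgeR 4.0.16 (R 4.3.3) with TMM factors, filterByExpr, a term for each age and genotype and a term for the title prefix, whose meaning the labels do not give. The quasi-likelihood F test with Benjamini-Hochberg adjustment called genes at an adjusted p below 0.05, and the SE is the absolute log2 fold change over the square root of F. List sums are CPM of gene count totals. Alternatives used DESeq2 1.42.0, limma 3.58.1 on log2(TPM + 1) or log2(TPM + 0.1), other filters, scalings and sets of libraries, and leaving out each library. On simulated data of 19927 genes for P10 versus P5, 65 of 100 genes changed 2-fold and 21 of 100 changed 1.5-fold were recovered, with 4 false among 90 calls.

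Genes are named by a rule: the 12 largest rises and falls among calls of at least 5 CPM in the higher group whose ages do not overlap, up to 4 calls of smallest adjusted p in each list (with none, up to 2 of highest level), the 5 smallest adjusted p of the genotype test, and a fixed set that includes Omp, Gap43, Mki67, Krt5, Cyp2g1 and Kcnj2. Some genes the rule names are not reported here. Members and lists were chosen with earlier results of these data known, and other named genes were chosen after their values were seen or show the rest of a list.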

Additional observations from a re-analysis of the deposited data

Results flagged for a closer look

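The change from P5 to P10 differed between the genotypes for 19 genes by the test of the difference itself (edgeR), and the 5 of smallest adjusted p are given. H2-Q6, a class I histocompatibility gene, changed by 4.51 ± 0.73 more in Kir than in WT on the log2 scale (edgeR adjusted p = 0.00893). It stood at 1.37 to 2.3 CPM in the Kir P5 libraries and at 6.88 to 15 CPM in all 4 Kir P10 libraries, against 0.893 to 3.16 CPM and 0.207 to 0.707 CPM in WT. The other 4 encode ribosomal proteins, with differences of 6.83 for Rpsa, 5.78 for Rps12, 5.78 for Rpl9 and 5.05 for Fau, each at an edgeR adjusted p of 0.042. Rpsa stood at 655 and 611 CPM in Kir P10 replicates 1 and 2 and at 2.62 and 3.7 CPM in replicates 3 and 4, and Rps12, Rpl9 and Fau were high in the same 2 libraries, which had 17.7% and 33.5% unmapped reads. The same 2 libraries had 6.44% and 5.17% multiply mapped reads, against 14.6% to 18.8% in the other Kir libraries of these ages. Multiply mapped reads are not in the gene counts: in WT P5 Rpsa stood at 4.02 CPM but 1560 TPM, Rpl9 at 4.08 CPM but 1300 TPM and Fau at 7.9 CPM but 1560 TPM. The CPM of these genes leaves out such reads, and the part of read mapping in the differences was not tested.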

How the results depend on the processing

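No paired analysis was possible because the P5 and P10 titles carry no replicate numbers. The 385 calls of P10 versus P5 became 695 with the 6 libraries alone, 649 by DESeq2, 79 on log2(TPM + 1), 76 on log2(TPM + 0.1) and 117 on log2(TPM + 1) without a filter, and from 113 to 285 with single libraries left out. In settings chosen after seeing the data they became 766 with the 13 P5 and P10 libraries alone and 228 with the library titled P0 but staged P3 moved to P3. DESeq2 kept 381 of the 385 and log2(TPM + 1) kept 73; none took the other sign under the 16 alternatives in which signs were followed, which leave out the 2 settings chosen later. The genotype test called 0 genes with the 13 libraries alone and 0 without the prefix term, 119 by DESeq2, 98 without a filter, 1 on log2(TPM + 1), 1 without the 2 Kir P10 libraries of most unmapped reads, and 0 to 183 with single libraries left out; in edgeR 872 genes had an unadjusted p under 0.05. The 355 genes called alike at P14 versus P3 became 577 by DESeq2, 76 on log2(TPM + 1), 216 with that library moved, and 101 to 347 with single libraries left out. The causes were not tested. Of 91 called named genes, 21 kept their call under every alternative that gave a value. In the simulation 21 of 100 changes of 1.5-fold were recovered.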
